A study of Arabidopsis thaliana with 6 samples.

Results

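The CIN-type TCP genes of Arabidopsis thaliana were followed in the wild type Col-0 and in the cdc5 mutant, which is named for CDC5, a MYB-related protein that binds DNA and belongs to a complex associated with the spliceosome. The members were 8 genes chosen by their gene identifiers: TCP2 (AT4G18390), TCP3 (AT1G53230), TCP4 (AT3G15030), TCP10 (AT2G31070) and TCP24 (AT1G30210), known as targets of the microRNA miR319, and TCP5 (AT5G60970), TCP13 (AT3G02150) and TCP17 (AT5G08070), known as relatives without its target site. They account for 8 of the 27947 genes and 14 of the 45666 annotated transcripts in the deposited table, and the FPKM values of a gene's transcripts (fragments scaled by transcript length and by mapped fragments) were added to give its level. There were 6 polyadenylated RNA libraries, 3 labelled Col-0 and 3 labelled cdc5, all labelled as rosette leaves. The mutant's allele, the plants' age and their growth conditions are not given in the sources used here, and the numbers in the titles of the mutant libraries could be read as replicates or as alleles. No label says that the libraries came from separate plants, so the p-values measure the spread between these libraries, which may be technical.

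TCP proteins are plant transcription factors that bind DNA through a basic helix-loop-helix-like domain. The CIN subgroup, named after CINCINNATA of snapdragon, slows cell division and promotes differentiation in growing leaves, and plants that lack several of these genes have crinkled leaves. The microRNA miR319 pairs with a site in the messenger RNA of part of the subgroup and directs its cleavage, and the closely related miR159 does the same mainly to GAMYB-like MYB transcripts.

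The paired sequences are shown because the split of the members rests on them. The mature microRNAs were read 5′ to 3′ from the TAIR10.1 genome at their RefSeq positions, and the capitals mark the seed (bases 2 to 8). The miR319a sequence lies at chr4:12353109-12353129 on the plus strand, that of miR319c at chr2:17029870-17029890 on the plus strand, and that of miR159a at chr1:27713234-27713254 on the minus strand. miR319b, at chr5:16660469-16660489 on the minus strand, has the same letters as miR319a.
miR319a: uUGGACUGaagggagcucccu
miR319c: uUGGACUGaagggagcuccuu
miR159a: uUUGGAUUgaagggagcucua

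The best match to miR319a in each of the 5 targets is printed next, 5′ to 3′ on the messenger's strand, with capitals at the bases that do not form a Watson-Crick pair with miR319a. The sites lie at chr4:10163402-10163422 (minus strand) for TCP2, chr1:19850522-19850542 (minus) for TCP3, chr3:5063300-5063320 (plus) for TCP4, chr2:13221210-13221230 (minus) for TCP10 and chr1:10628989-10629009 (minus) for TCP24, and each is in coding sequence in every listed transcript of its gene.
TCP2: CAggGgGAcccuucaguccaa
TCP3: GAggGgUCcccuucaguccaU
TCP4: GAggGgUCcccuucaguccaG
TCP10: aAggGgUAcccuucaguccaG
TCP24: UAggGgGAcccuucaguccaa

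All 5 sites hold the run cccuucagucca, which pairs with bases 2 to 13 of miR319a, and they differ from each other only outside it. The sense strand of every transcript was searched for this run, and 7 of 27382 genes (0.0256%) held it: the 5 members, AT1G48090 and AT5G37450. With 1 point for a mismatch and 0.5 for a G:U pair, the sites scored 4.5 in TCP2, TCP3 and TCP24, 4.0 in TCP4 and 3.5 in TCP10. A score of at most 4.5, the highest among these 5 sites, was reached by 66 of 27381 genes (0.241%). The lowest score of all, 3.0, was that of 3 GAMYB-like genes, MYB33 and MYB65 among them. The best match scored 8.5 in TCP5, 7.5 in TCP13 and 6.0 in TCP17, and 6.17% of genes had a match at 6.0 or lower. These matches are descriptions of sequence, and neither cleavage nor mature microRNAs were measured.

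**Figure D1:**
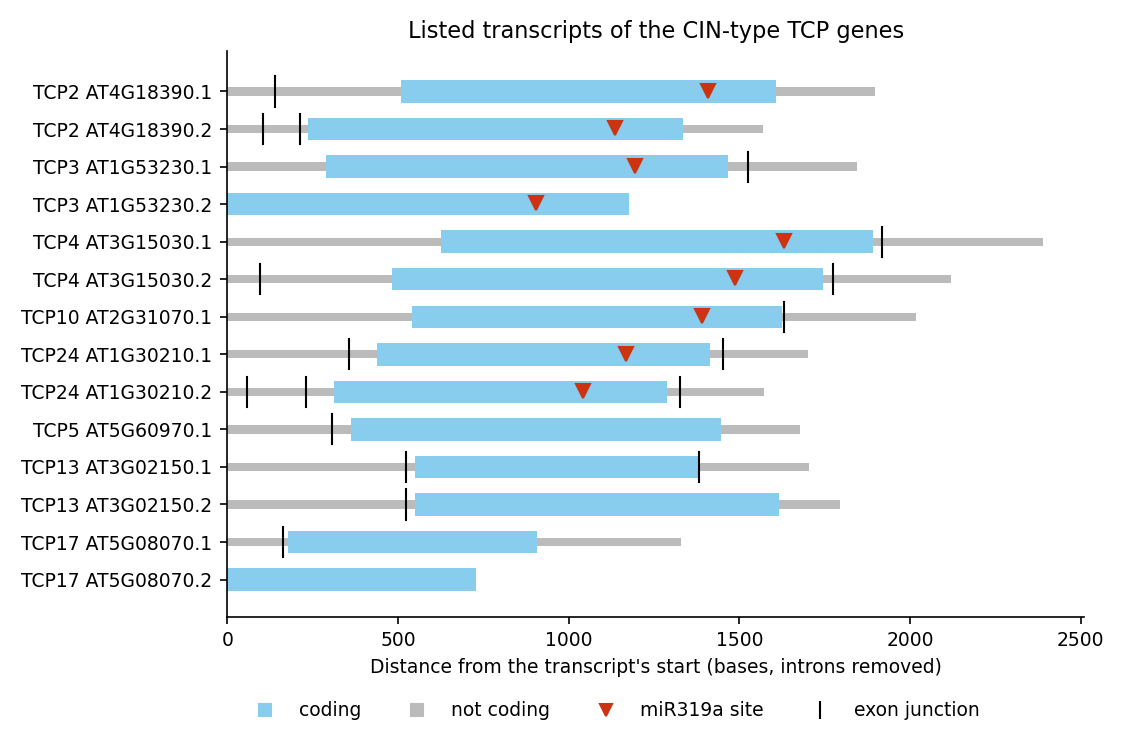
The 14 listed transcripts of the 8 members as modelled in RefSeq, drawn 5′ to 3′ against the distance from the transcript's start (bases, introns removed), with coding parts as wide blue bars, other parts in grey, exon junctions as ticks and the match to miR319a as a triangle. The triangle falls within the coding part of each of TCP2, TCP3, TCP4, TCP10 and TCP24, and TCP5, TCP13 and TCP17 have none.

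The libraries bear on the members in the following ways. The estimated depth was 19.2 to 25.6 M fragments per library (M for 1e6), at which 3 fragments on a transcript of 1 kb come to 0.117 to 0.156 FPKM. CDC5 itself was at 38.2, 37.0 and 36.1 FPKM in Col-0 and 21.8, 21.3 and 20.96 FPKM in cdc5, so its messenger was reduced to 57.5% and not lost. Leaf genes were high in all libraries. RBCS1A, a subunit of the carbon-fixing enzyme, rose from 3784 to 4811 FPKM, while LHCB1.3 (2810 and 2975 FPKM) and CA1 (595.5 and 578.6 FPKM) were not called. The floral organ genes AP1, AP3, PI and AG, absent from mature rosette leaves as a rule, were also high, and 3 of the 4 were lower in cdc5. Their summed level was 466.0 to 516.7 FPKM in Col-0 and 362.9 to 399.2 FPKM in cdc5. Of the meristem genes, WUS was at 18.96 FPKM in Col-0 and 15.2 FPKM in cdc5 and was called lower. STM was at 34.98 and 42.2 FPKM and was called higher (log2 fold change 0.27, adjusted p = 0.00071 in limma). LFY was at 2.02 and 2.51 FPKM and not called, and CLV3 and the root marker PYK10 were near 0. These levels go against a label of rosette leaves alone, the floral markers moved with genotype, and their part in the results on the members was not tested. In such bulk samples fewer cells of a type and less RNA per cell cannot be told apart.

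Of the 8 members, 6 were higher in cdc5 and none was lower, by limma on log2(FPKM + 1) with Benjamini-Hochberg adjustment over 19778 genes and a threshold of 0.05. The members called higher were TCP2, TCP3, TCP4 and TCP24 of the targets and TCP5 and TCP13 of the relatives without the site. TCP5 met the level required for the test, a mean of 1 FPKM over all libraries, only through its cdc5 values. With no such filter all 8 were tested and 6 were again called higher. In that setting 11549 of 27947 genes were called, 59.6% of these as higher. The background was wide: 55.8% of all genes tested were called, 33.3% as higher and 22.4% as lower. Every library of a genotype lay on the same side of those of the other for 7 of the 8 members, against 63.6% of all genes tested. The median log2 fold change was 0.33 over the 8 members and 0.06 over all genes tested. The differences were small, at most 1.54 times, and the scale log2(FPKM + 1) understates those of the low genes.

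TCP3 and TCP4 are the best studied of the targets as activators of leaf maturation. TCP3 was at 20.4, 19.8 and 19.9 FPKM in Col-0 and at 26.5, 25.4 and 29.7 FPKM in cdc5. TCP4 was at 18.6, 17.2 and 17.96 FPKM in Col-0 and at 23.2, 23.1 and 22.6 FPKM in cdc5. For both genes every cdc5 library lay above every Col-0 library, and the genotypes were further apart than the libraries within either. TCP3 rose 1.36 times, from 20.02 ± 0.366 to 27.2 ± 2.21 FPKM (SD, n = 3). On the log2 scale this was 0.42 with an SE of 0.06 and an adjusted p of 0.00042 in limma. TCP4 rose 1.28 times, from 17.9 ± 0.675 to 22.98 ± 0.286 FPKM, or 0.34 on the log2 scale with an SE of 0.047 and an adjusted p of 0.00033 in limma. The exact two-sided permutation test gave 0.1 for each, the smallest value it can give with 3 against 3. TCP3 and TCP4 are the most alike of the members, with 82.2% identity of coding sequence, yet their longest shared run is 38 bases. TCP3 also overlaps the long noncoding gene AT1G53233 on the opposite strand over 1525 bases. The sources used here do not say whether counting used strand, so reads of the pair cannot be told apart. AT1G53233 was at 3.41 FPKM in Col-0 and 4.03 FPKM in cdc5.

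TCP2 and TCP24 form another pair of close relatives among the targets and take part in the same restraint of leaf growth. TCP24 was at 11.9, 11.0 and 11.8 FPKM in Col-0 and at 15.7, 14.7 and 14.3 FPKM in cdc5. TCP2 was at 13.5, 15.1 and 13.5 FPKM in Col-0 and at 15.8, 15.7 and 17.1 FPKM in cdc5. TCP24 was clear of overlap by more than 2 FPKM, while the highest Col-0 library of TCP2 lay just under its lowest cdc5 library. TCP24 rose 1.29 times, from 11.6 ± 0.498 to 14.9 ± 0.732 FPKM; the log2 fold change was 0.34 (SE 0.059, adjusted p = 0.0012 in limma). TCP2 rose 1.15 times, from 14.0 ± 0.911 to 16.2 ± 0.780 FPKM; the log2 fold change was 0.19 (SE 0.062, adjusted p = 0.026 in limma). The call on TCP2 was lost without Col-0 replicate 1 (adjusted p = 0.077 in limma), without Col-0 replicate 3 (0.082) or without cdc5 replicate 3 (0.087), and its adjusted p ranged from 0.012 to 0.29 over 13 alternatives. It was also lost under cyclic loess scaling (log2 fold change 0.08), a length and GC adjustment (0.12) and with its top transcript alone (0.12).

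TCP10, the last of the targets, was at 17.2, 17.4 and 17.7 FPKM in Col-0 and at 19.4, 20.1 and 17.9 FPKM in cdc5. The genotypes did not overlap, but cdc5 replicate 3 stood just above the Col-0 range. The means were 17.4 ± 0.275 and 19.1 ± 1.15 FPKM, and the log2 fold change of 0.13 (95% interval 0.00 to 0.25, SE 0.055) did not pass the test, with an adjusted p of 0.078 in limma. Without cdc5 replicate 3 the log2 fold change was 0.17 and the adjusted p 0.028 in limma, and under the 12 other alternatives it did not pass, with 0.03 under cyclic loess scaling and 0.02 under the length and GC adjustment.

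The relatives without the miR319 site were far lower. TCP13 (chr3:390720-392767, plus strand), which acts in leaf growth, was at 2.48, 2.55 and 2.64 FPKM in Col-0 and at 3.88, 3.01 and 3.98 FPKM in cdc5. TCP5 (chr5:24535337-24537244, minus strand), which acts with TCP13 and TCP17 in leaf margins, was at 0.682, 1.00 and 0.896 FPKM in Col-0 and at 1.21, 1.46 and 1.29 FPKM in cdc5. For both genes the cdc5 libraries were the higher 3 without overlap, and cdc5 replicate 2 was the nearest to Col-0 for TCP13. TCP13 rose 1.42 times, from 2.56 ± 0.0788 to 3.62 ± 0.532 FPKM; the log2 fold change was 0.37 (SE 0.1, adjusted p = 0.014 in limma). TCP5 rose 1.54 times, from 0.861 ± 0.164 to 1.32 ± 0.128 FPKM; the log2 fold change was 0.32 (SE 0.12, adjusted p = 0.044 in limma). The call on TCP5 was lost in 9 of 12 alternatives, leaving out any library but Col-0 replicate 2 among them. In those 9 the adjusted p was 0.053 to 0.14 in limma. The call on TCP13 was lost without cdc5 replicate 1 (adjusted p = 0.051 in limma) and with its top transcript alone (log2 fold change 0.15).

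TCP17 (chr5:2584358-2586035, plus strand), which takes part in growth responses to shade, was the exception in direction. It was at 1.70, 3.00 and 2.49 FPKM in Col-0 and at 1.23, 1.75 and 2.18 FPKM in cdc5. The genotypes overlapped, with Col-0 replicate 1 below 2 of the 3 cdc5 libraries. The means were 2.40 ± 0.657 and 1.72 ± 0.475 FPKM, the log2 fold change was -0.32 (95% interval -0.72 to 0.08, SE 0.18), and the difference did not pass the test (adjusted p = 0.16 in limma, exact two-sided permutation p = 0.3). Without Col-0 replicate 1 the log2 fold change was -0.47 (adjusted p = 0.042 in limma), without Col-0 replicate 2 it was -0.19 (0.42) and without cdc5 replicate 1 it was -0.18 (0.42).

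**Figure D2:**
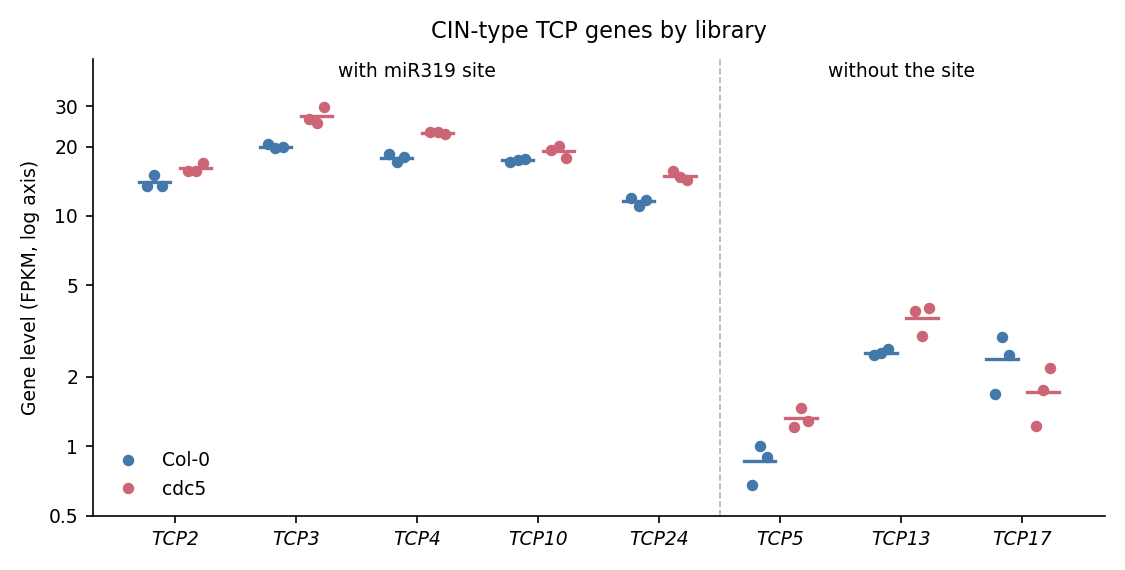
Level of each of the 8 members in every library (FPKM, log axis), with Col-0 and cdc5 side by side; points are libraries and bars are group means. The 5 targets lie between 11.0 and 29.7 FPKM and the other members between 0.682 and 3.98 FPKM, and only TCP17 overlaps between the genotypes.

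Within Col-0 the order of levels, which FPKM gives per length, was TCP3, TCP4, TCP10, TCP2, TCP24, TCP13, TCP17 and TCP5 from high to low. TCP4 and TCP10 overlapped there, as did TCP13 and TCP17. In cdc5 the order of means was the same, with TCP2 and TCP24 overlapping and TCP17 and TCP5 overlapping. The 5 targets summed to 81.6, 80.5 and 80.8 FPKM in Col-0 and to 100.5, 99.1 and 101.5 FPKM in cdc5, a ratio of 1.24. The 3 genes without the site summed to 4.86, 6.55 and 6.03 FPKM in Col-0 and to 6.32, 6.22 and 7.45 FPKM in cdc5, a ratio of 1.15. The sums of the targets were well apart between genotypes and those of the others overlapped. The genes without the site made up 6.70 ± 0.975% of the subgroup's summed level in Col-0 and 6.22 ± 0.533% in cdc5. Whether the response differed between members with and without the site was not tested, since the genes are not replicates of each other.

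The annotated transcripts add detail to the gene sums. Of the 14 member transcripts 9 had a mean of at least 1 FPKM, and 3 of these passed limma at the transcript level, all higher in cdc5. Of the 27441 transcripts tested 31% passed, 17.8% as higher. They were both transcripts of TCP3 and the main transcript of TCP24. TCP3.1 was at 3.78, 3.84 and 3.74 FPKM in Col-0 and at 5.84, 4.91 and 5.64 FPKM in cdc5. TCP3.2, a model without untranslated regions, was at 16.7, 15.9 and 16.1 FPKM in Col-0 and at 20.7, 20.5 and 24.04 FPKM in cdc5. Neither overlapped, and the log2 fold changes were 0.43 (adjusted p = 0.023 in limma) and 0.40 (adjusted p = 0.011 in limma). Their usage did not differ by diffSplice (adjusted p = 0.91 in limma), a test passed by 21.8% of 5456 genes. TCP3 was the only member with enough transcripts at the required level for that test. The call on TCP3.1 was lost when any library but cdc5 replicate 2 was left out, with adjusted p up to 0.075 in limma. Over all 10 alternatives it held in 4, with adjusted p up to 0.083 in limma. TCP24.1 had a log2 fold change of 0.37 (adjusted p = 0.0066 in limma), and TCP4.1 had 0.28 (adjusted p = 0.065 in limma). TCP17.2, also a model without untranslated regions, made up 88.7 ± 3.64% of TCP17 in Col-0 and 85.9 ± 3.05% in cdc5. The level of TCP17 thus rests mainly on that model, which had a log2 fold change of -0.33 (adjusted p = 0.3 in limma).

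TCP2.2, the second transcript of TCP2, was listed in every cdc5 library and in no Col-0 library. It stood at 0.774, 0.846 and 0.767 FPKM in cdc5 and was listed at 0 in each Col-0 library, and in cdc5 it made up 4.93 ± 0.451% of the gene. It lacks 234 bases of the 5′ untranslated region that TCP2.1 holds (chr4:10164335-10164568), and its coding sequence and miR319 match are those of TCP2.1. TCP2.1 itself was at 13.5, 15.1 and 13.5 FPKM in Col-0 and at 15.0, 14.8 and 16.3 FPKM in cdc5, overlapping, with a log2 fold change of 0.12 and an adjusted p of 0.21 in limma. The mean of TCP2.2 was under the level required for the transcript test, and zeros in such a table can be failed estimates.

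The other minor transcripts varied between libraries of the same genotype. TCP4.2 was at 1.34 FPKM in Col-0 replicate 3 and 4.28 FPKM in cdc5 replicate 1 and at 0 in the others. TCP24.2 was at 0.927 FPKM in Col-0 replicate 1 and at 0 in the others. TCP13.2, which holds a coding segment of 92 bases (chr3:392356-392447) that TCP13.1 lacks, was at 2.10, 2.55 and 2.22 FPKM in Col-0 and at 3.61, 2.71 and 1.81 FPKM in cdc5. TCP13.1 was at 0.414 FPKM or lower except in cdc5 replicate 3, at 2.17 FPKM, so the split between the TCP13 transcripts was unlike in that library while the gene sum was not. The authors' deposited table marks as significant 2 of the 14 member transcripts, TCP2.2 as up (q = 1.34e-12) and TCP24.2 as down (q = 1.64e-07), beside 12.2% of all transcripts. The mark in the authors' deposited table stood exactly where q was under 0.05 and the fold at least 2. The second of these marks rests on 1 library. In the authors' deposited table TCP24.1 (q = 8.19e-06), TCP3.1 (q = 7.34e-05) and TCP3.2 (q = 0.000301) had low q values without the mark.

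The rest of the TCP family gives the setting. Class I TCP genes, many of which are known to promote growth where CIN genes restrain it, number 13, of which 10 were tested. In cdc5 5 of these were lower, 1 was higher and 4 were not called, beside 22.4% lower over all genes. Their median log2 fold change was -0.29. TCP21, a clock-associated gene also called CHE, was at 23.3, 22.3 and 23.6 FPKM in Col-0 and at 14.3, 15.6 and 14.6 FPKM in cdc5 (log2 fold change -0.61, adjusted p = 2.5e-05 in limma). TCP7 fell by 0.48 on the log2 scale (adjusted p = 0.00015 in limma) and TCP19 by 0.46 (adjusted p = 0.00039 in limma). These 3 stood apart between genotypes without overlap. The calls on TCP20 (log2 fold change -0.29), TCP23 (-0.29) and TCP14 (0.18) depended on single libraries: TCP20 was lost without any library but Col-0 replicate 2, TCP23 without any Col-0 library or cdc5 replicate 1, and TCP14 without replicate 1 or 2 of Col-0 or 2 or 3 of cdc5. Adjusted p without a library reached 0.15 for TCP20, 0.12 for TCP23 (log2 fold change -0.18 without cdc5 replicate 1) and 0.11 for TCP14 in limma, and TCP20 had a log2 fold change of 0.60 with its top transcript alone. TCP14 also lost its call under cyclic loess scaling (0.07). TCP8 was at 0.947 FPKM in Col-0 replicate 1 and at 13.6 to 19.7 FPKM elsewhere. Its log2 fold change without that library was -0.39 (adjusted p = 0.0016 in limma). None of the 3 genes of the CYC/TB1 subgroup, which restrains branching, reached the level required for the test.

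**Figure D3:**
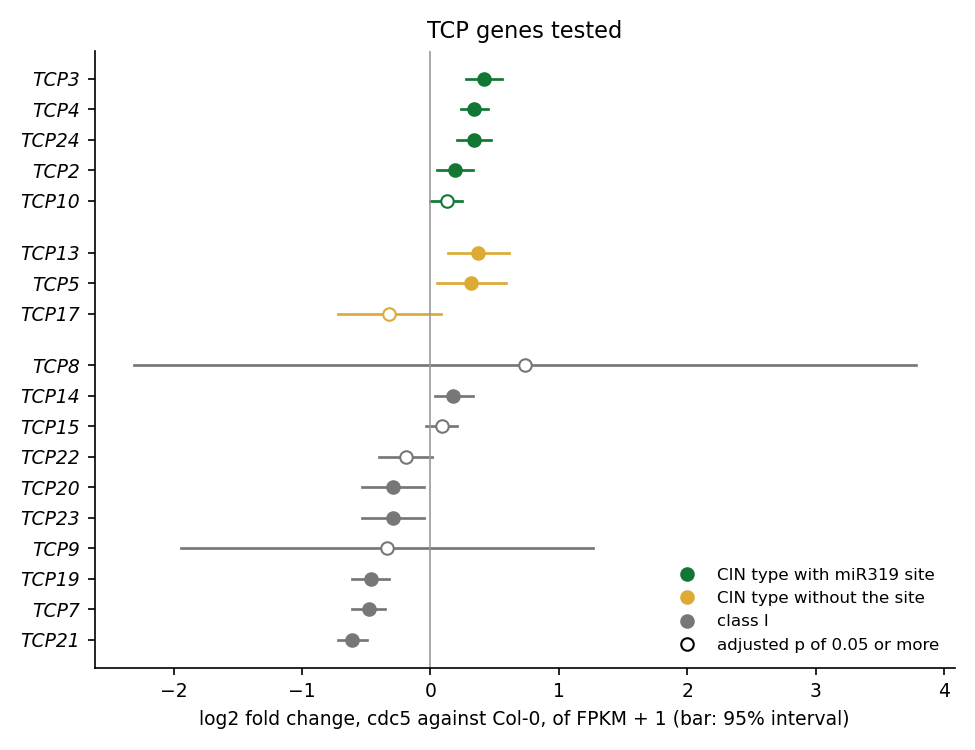
Log2 fold change of cdc5 against Col-0 on log2(FPKM + 1) for the TCP genes tested, with 95% intervals from limma, grouped by subgroup; open points did not pass. TCP17 is the only CIN member below 0, at -0.32, and TCP21, at -0.61, is the lowest of the class I genes.

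The miR319 precursors were hardly detected. MIR319A was at 0.114 FPKM or lower in every library, and MIR319C was at 0.032 FPKM in Col-0 replicate 1 and at 0 elsewhere. MIR319B was at 0.732, 0.584 and 1.53 FPKM in Col-0 and at 0.881, 0.379 and 0.702 FPKM in cdc5, which overlapped, and only 2 of the 6 libraries exceeded the level of 3 fragments. A difference in miR319 precursors was therefore not detectable at this depth. The precursor MIR159B, the only one tested, had a log2 fold change of 0.23 (adjusted p = 0.19 in limma). Of 7 GAMYB-like targets of miR159, 3 were tested. MYB33 rose from 8.83 ± 0.250 to 15.1 ± 2.45 FPKM (log2 fold change 0.70, adjusted p = 0.00039 in limma). MYB101 fell from 10.7 ± 0.384 to 6.89 ± 0.176 FPKM (log2 fold change -0.57, adjusted p = 7.2e-05 in limma), and MYB65 was at 0.22 (adjusted p = 0.062 in limma, and 0.038 without cdc5 replicate 2). With its top transcript alone MYB33 had a larger log2 fold change, 1.02, that did not pass (adjusted p = 0.33 in limma). Genes that process microRNAs were also measured, and 3 of 5 were higher and 1 lower, beside 33.3% higher and 22.4% lower over all genes tested. SE had a log2 fold change of 0.32 (adjusted p = 0.00046 in limma). HYL1 had 0.33 (adjusted p = 0.0015 in limma), and 0.21 under cyclic loess scaling. HEN1 had 0.23 (adjusted p = 0.0088 in limma) and the slicer AGO1 had -0.22 (adjusted p = 0.0018 in limma). The call on HEN1 was lost under cyclic loess scaling (0.11) and the length and GC adjustment (0.03), and AGO1 stood at 0.10 with its top transcript alone.

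Genes known to be activated by CIN-TCP factors did not move as a block. Of 12 listed genes 10 were tested, and 3 were higher and 1 lower in cdc5. Over all genes tested 33.3% were higher and 22.4% lower. Their median log2 fold change was -0.04. LOX2, a direct TCP4 target that starts jasmonate synthesis, was at 404.0, 393.6 and 392.6 FPKM in Col-0 and at 483.0, 477.5 and 490.0 FPKM in cdc5 (log2 fold change 0.28, adjusted p = 4.9e-05 in limma). IAA19, a repressor of auxin responses, was at 38.5, 40.4 and 40.7 FPKM in Col-0 and at 23.8, 28.3 and 24.5 FPKM in cdc5 (log2 fold change -0.63, adjusted p = 6.6e-05 in limma). LOX2 was thus higher and IAA19 lower in every cdc5 library. Under the length and GC adjustment LOX2 had 0.15 and still passed (adjusted p = 0.0013 in limma). HAT2, an auxin-induced homeodomain gene, rose by 0.28 (adjusted p = 0.005 in limma), and by 0.18 under cyclic loess scaling (adjusted p = 0.046 in limma). KRP1, an inhibitor of the cell cycle, was at 0.32 (adjusted p = 0.034 in limma) and lost its call in 8 alternatives, among them those without replicate 1 or replicate 3 of either genotype.

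Genes in lists tied to repression by CIN-TCP activity, directly or through microRNAs, were mostly higher. Whether each listed gene is held down in that way was not checked. Of 5 MIR396 and MIR164 precursor genes none reached the level required for the test. Of the 7 boundary and KNOX genes, which keep organs apart and meristem cells undifferentiated, 6 were higher and none lower. Their median log2 fold change was 0.61. Over all genes tested 33.3% were higher and 22.4% lower, with a median of 0.06. KNAT2 rose from 3.95 ± 0.431 to 10.02 ± 0.949 FPKM (log2 fold change 1.15, adjusted p = 1.7e-05 in limma), and KNAT1 from 26.98 ± 1.66 to 44.2 ± 0.441 FPKM (0.69, adjusted p = 9.2e-06 in limma). CUC3 rose by 0.84 (adjusted p = 0.00016 in limma) and KNAT6 by 0.61 (adjusted p = 2e-05 in limma), and CUC2 had a log2 fold change of 0.04 (adjusted p = 0.8 in limma). Of the growth-regulating factor genes and their coactivator GIF1, 9 of 10 were higher, with a median of 0.61. The call on GRF6 (log2 fold change 0.27, adjusted p = 0.032 in limma) held in 5 of 13 alternatives. GRF1 rose from 8.00 ± 0.365 to 15.9 ± 1.56 FPKM (log2 fold change 0.91, adjusted p = 2.1e-05 in limma) and GRF3 to 17.7 ± 0.644 FPKM, 1.75 times its Col-0 level (0.75, adjusted p = 1.7e-05 in limma). GIF1 was at 19.2 FPKM in cdc5 replicate 1 and at 45.6 to 52.2 FPKM elsewhere, with a log2 fold change of 0.04 without that library. The sum of floral markers given earlier was lower in cdc5. Of the meristem genes given earlier WUS was lower, and STM, which is also 1 of the 7 boundary and KNOX genes, was higher. The part of the mix of tissues in these lists was not tested.

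Among partners of the CIN-TCP proteins 9 of 12 genes were tested, 3 were higher and 1 lower. The shares over all genes tested were 33.3% higher and 22.4% lower. TPR3, a corepressor of the TOPLESS family, fell from 20.8 ± 1.43 to 15.8 ± 0.694 FPKM (log2 fold change -0.38, adjusted p = 0.00087 in limma), and with its top transcript alone had -0.58, which did not pass (adjusted p = 0.15 in limma). TPR4 of the same family was at 0.24 (adjusted p = 0.0011 in limma) and BRM, a chromatin remodelling ATPase that TCP4 recruits, at 0.25 (adjusted p = 0.0032 in limma). Both were lost under the length and GC adjustment, at 0.06 and 0.10, and TPR4 had 1.34 with its top transcript alone, which did not pass (adjusted p = 0.43 in limma). TPL was at 0.15 (adjusted p = 0.036 in limma) and had -0.03 under that adjustment. Its call was lost without replicate 1 or 3 of Col-0 or 2 or 3 of cdc5, with adjusted p up to 0.12 in limma. TIE1, TIE2 and TIE4, repressors that bridge TCP proteins to TOPLESS, were under the level required for the test.

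**Figure D4:**
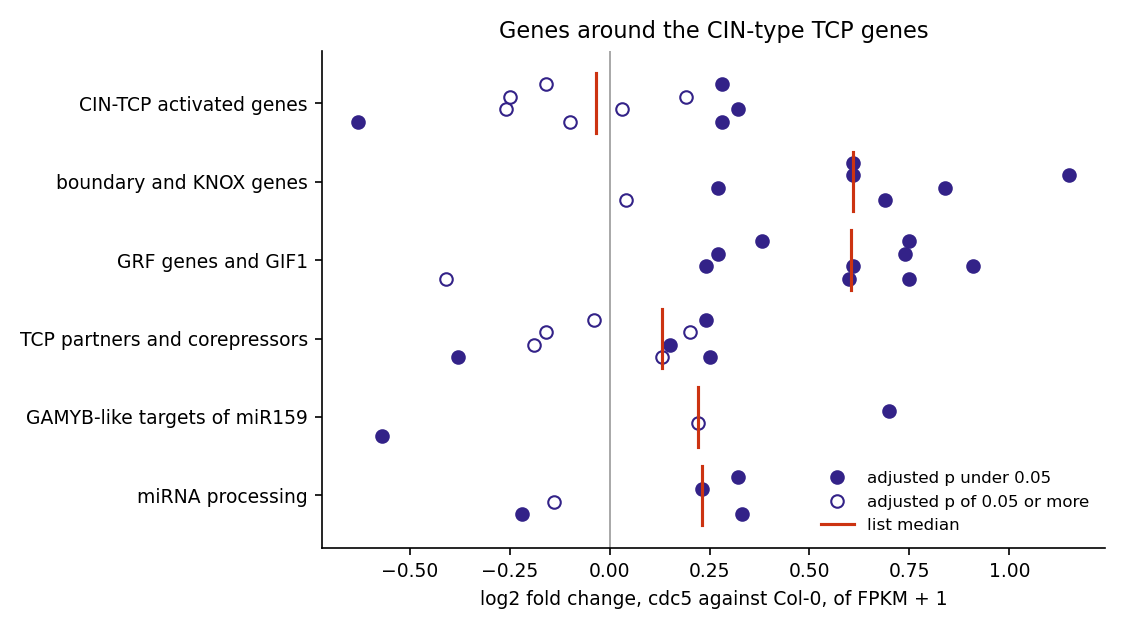
Log2 fold change of cdc5 against Col-0 on log2(FPKM + 1) for the tested genes of each list, with points as genes and a bar at the list's median. The boundary and KNOX genes and the GRF genes with GIF1 have medians of 0.61, and the genes activated by CIN factors have -0.04; filled points passed limma at an adjusted p under 0.05.

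The genes most like TCP4 over the 6 libraries, by the root mean square difference of mean-centred log2(FPKM + 1), were IMPA-6 (0.0107), AT5G45430 (0.0123) and AT3G11070 (0.0127). Those most like TCP13 were AT3G59020 (0.0225), BCA2 (0.033) and TRFL10 (0.0358). IMPA-6, an importin subunit, was at 17.4, 16.2 and 16.96 FPKM in Col-0 and at 21.5, 21.5 and 21.4 FPKM in cdc5. Over 6 libraries of both genotypes, such likeness includes the difference between them.

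Gene length moved with the fold changes over the whole table. The median log2 fold change was -0.10 in the shortest of 10 length classes and 0.20 in the longest. TCP17 fell in a length class with a median of -0.03, TCP5, TCP2, TCP3, TCP24 and TCP13 in classes at 0.06, TCP10 at 0.10 and TCP4 at 0.12. With the length and GC adjustment 4 of the 8 members were called higher, as with cyclic loess scaling. Over all genes the adjustment called 10521 of 19729, 52.7% of these as higher. Cyclic loess scaling called 10342 of 19778 genes, 50.3% of these as higher. TCP3, TCP4 and TCP24 passed under all 13 alternatives run at the gene level, with log2 fold changes of 0.35 to 0.47, 0.26 to 0.37 and 0.22 to 0.37.

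**Figure D5:**
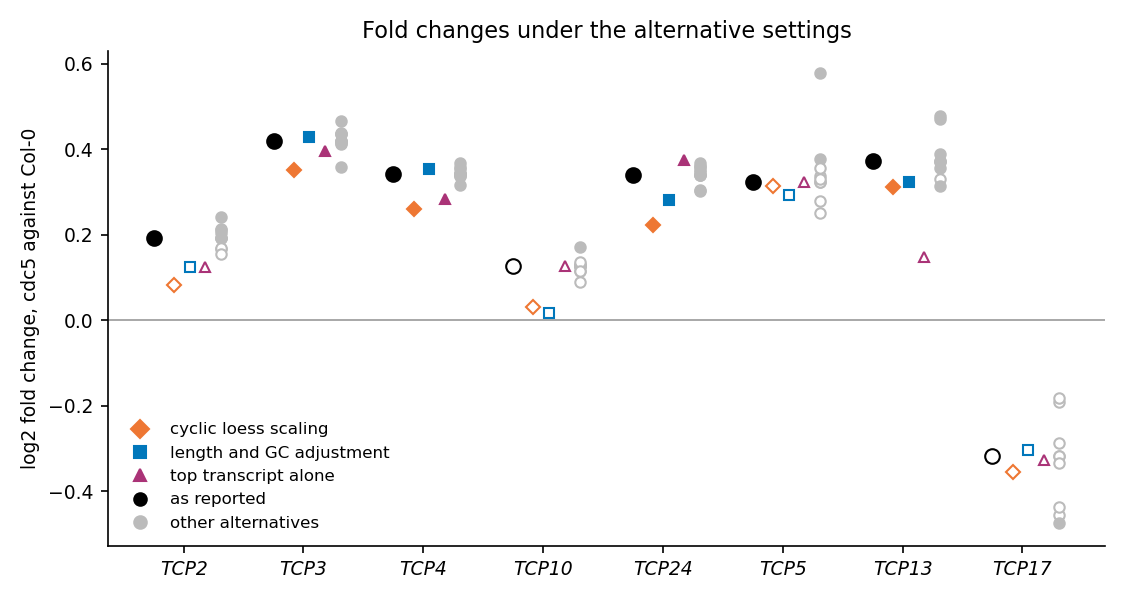
Log2 fold change of the 8 members in the fit reported here and under each alternative, with filled marks where the adjusted p is under 0.05 and grey circles for the pseudocount, filter, block and left-out libraries. TCP3, TCP4 and TCP24 stay filled under every alternative, and TCP10 and TCP17 are filled under 1 each.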

How the data were processed

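Transcript levels came from 1 table of 6 libraries. The tools named, per the submitters' processing notes and with no roles given, were StringTie 1.3.4d, HISAT2 2.0.4, cutadapt 1.9, edgeR and DESeq2. The same notes name a mouse build, which cannot apply to Arabidopsis, and the TAIR10.1 assembly, used here for sequences, gave an identical span for 97.8% of 27696 nuclear genes. The authors deposited FPKM per transcript, with a linear ratio (fold), its log2 value, p-values and q-values for cdc5 against Col-0. The deposited values hold no counts, so depth was estimated from the steps of low FPKM values, of which 61.0 to 64.5% lay within 0.1 of a whole fragment, and no count test was run.

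FPKM were summed per gene. Genes with a mean of at least 1 FPKM were tested on log2(FPKM + 1) with limma 3.58.1 (trend, robust), with Benjamini-Hochberg adjustment over all genes and a threshold of 0.05. Transcripts were tested alike, and usage with diffSplice. The procedure was run on simulated data in which few genes changed, each by more than any member did in the fit reported. That run does not show how differences of the members' size are recovered. The members and lists were chosen with earlier results of these data known. The text names all members, up to 4 tested genes a list by smallest adjusted p, other TCP genes that passed, every miR319 precursor and the 3 genes most like TCP4 and TCP13. The leaf, flower, meristem and root markers are named as well. AS1, CUC2, TCP8, TCP9, GIF1 and GRF6 were named after their values were seen. Alternatives changed the pseudocount, the filter, the scaling, the length and GC adjustment, the replicate block, the summing over transcripts and the libraries. Only the sense strand was searched for microRNA matches. Intervals cover the spread between libraries.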

Additional observations from a re-analysis of the deposited data

How the results depend on the processing

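Of the 8 members 6 were called as reported, 3 with the top transcript of each gene alone and 4 to 6 when 1 library was left out. Over all genes tested 11027 of 19778 were called as reported and 8131 of 19445 with the top transcript alone. With 1 library left out 9799 to 10238 of 19778 genes were called. Members called lower numbered 0 to 1 when 1 library was left out, the 1 being TCP17 without Col-0 replicate 1. Only TCP3 had 2 transcripts at the level required for the usage test, and it was not called. Usage of the other members was not tested at that level. When transcripts were admitted from a mean of 0.1 FPKM, TCP2, TCP3, TCP4, TCP24, TCP13 and TCP17 were tested and 1 was called. That gene is TCP2, whose second transcript is listed at 0 in Col-0 and entered only through cdc5, so the call restates that listing. With the replicate block 5 members were called, since TCP5 was lost (adjusted p = 0.06 in limma), beside 10634 of 19778 genes. Libraries with the same number share only that number, with correlations of their deviations of 0.043, 0.059 and 0.004. With the top transcript alone the log2 fold change turned to 0.60 for TCP20, -0.01 for MYB65, -0.53 for GRF6 and 0.10 for AGO1. Under cyclic loess scaling it turned to -0.01 for AS1 and -0.02 for CUC2, and under the length and GC adjustment to -0.03 for AS1 and -0.03 for TPL. With 1 library left out the log2 fold change ranged from -0.39 to 1.31 for TCP8, -0.63 to 0.11 for TCP9, -0.01 to 0.07 for AS1, -0.03 to 0.17 for CUC2, -0.64 to 0.04 for GIF1 and -0.02 to 0.33 for the transcript TCP13.2. The cause of these turns was not tested. Under cyclic loess scaling and under the length and GC adjustment 4 members were called, beside 10342 of 19778 and 10521 of 19729 genes. Depth limits the miR319 precursors, which exceeded the level of 3 fragments in 2 libraries at most.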
